A study of Mus musculus with 40 samples.

Results

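The genes of the vasoactive mediators nitric oxide, endothelin and the prostanoids were followed by tissue, genotype and diet, and all 10 members were found by symbol in both count tables, among 55335 genes counted in aortas and 55382 in kidneys. They were Nos3 for nitric oxide, then Edn1, Ece1, Ednra and Ednrb for endothelin, and Ptgs1, Ptgs2, Ptgis, Tbxa2r and Ptgir for the prostanoids. RNA was sequenced from aorta and kidney tissue of C57BL/6 mice, with 5 libraries for each genotype and diet in each tissue and 40 libraries in all. The knockout (EC-EGFR-KO, here KO) carried EGFR flox/flox alleles and the Cre of the line B6.Cg-Tg(Tek-cre)1Ywa, which is driven by the Tie2 promoter and excises exon 1 of the EGFR gene in endothelial cells. The controls (EC-EGFR-WT, here WT) carried the same Tie2-Cre but no LoxP sites, so every animal of both genotypes had the transgene. Tie2-driven Cre is not inducible and is also active in haematopoietic cells. From an age of 6 weeks the animals received either the standard fat diet (SFD, which the labels call SD), with 10% of energy from fat, or the high fat diet (HFD), with 60%, for 18 weeks. Sex and time of tissue collection are not given in the sources used here.

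Nitric oxide is made in endothelial cells by endothelial nitric oxide synthase and relaxes the smooth muscle beneath through soluble guanylate cyclase. Endothelin-1 is released as a precursor, cut by the endothelin converting enzyme, and constricts vessels through receptor A on smooth muscle, while receptor B on endothelial cells favours relaxation and clears the peptide. The cyclooxygenases turn arachidonic acid into prostaglandin H, from which prostacyclin synthase makes the dilator prostacyclin and other synthases make thromboxane, a constrictor.

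Total counts per library were 17520161 to 36452741 in aortas and 19643033 to 48833447 in kidneys. Levels are given as FPM, which is edgeR's CPM on library sizes normalized by TMM. The WT SFD aorta R-1 and the KO SFD aorta R-12 held counts that were nearer to each other than sampling noise allows (a median chi-square of 0.0279 across genes, against 1.497 for the next closest pair of aortas), and so did the KO HFD kidney a1 and the WT HFD kidney a12 (0.0282, against 1.53). Each pair may be a single library under 2 genotype labels, and which label holds cannot be told from the counts. Both were kept in the fits, and calls that were lost without a pair are given with and without it. The differences between KO and WT aortas are given with R-1 and R-12 kept, although the pair spans both genotypes. Without that pair, 0 members were called for the knockout in aortas, as with it. All genes on chromosomes 9, X, Y and MT, and the end of chromosome 8, which does not include Ednra, were listed at 0 in every library. Egfr itself was at 29.9 to 54.2 FPM in WT and 36.9 to 54.7 FPM in KO aortas, and at 21.7 to 64.5 FPM in WT and 34.6 to 60.5 FPM in KO kidneys, so the genotypes overlapped. A count per gene over unsorted tissue is no check of a deletion of exon 1 in endothelial cells. Endothelial markers were present: 9 of the 11 listed had counts (Esam and Cdh5 were at 0), and their summed level was 395 to 2007 FPM in aortas and 159 to 396 FPM in kidneys. With whole chromosomes listed at 0, a marker at 0, here or below, need not lack expression. Myh11 of smooth muscle was at 7679 to 11414 FPM in aortas, and Lrp2 of the proximal tubule at 1240 to 2026 FPM in kidneys.

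The bases just before the start of 2 members are shown because these genes, the ligand Edn1 and the inducible cyclooxygenase gene Ptgs2, moved with immediate-early or endothelial genes among the aortas. Both are the 120 bases before the annotated start in RefSeq (GRCm38.p6, plus strand), chr13:42301356-42301475 for Edn1 and chr1:150099911-150100030 for Ptgs2. Capitals mark the core TTGCGCA of a C/EBP site, which was added to the search after the Ptgs2 sequence had been read.
Edn1: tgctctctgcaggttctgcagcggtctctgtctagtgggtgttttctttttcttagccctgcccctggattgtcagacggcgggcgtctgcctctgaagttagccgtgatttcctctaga
Ptgs2: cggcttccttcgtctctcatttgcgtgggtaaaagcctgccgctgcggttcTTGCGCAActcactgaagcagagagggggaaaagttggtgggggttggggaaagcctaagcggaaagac
In the 250 bases before the start, the Ptgs2 window held the C/EBP core on both strands, the matches overlapping, from 69 bases before the start, and a GC box (GGGCGG) 170 bases before it. The C/EBP core was in 1.69% and the GC box in 32.7% of 32851 RefSeq promoter windows of that length. The TATA box TATAAA, the cAMP response element core TGACGT, the AP-1 site TGANTCA, the E-box CACGTG and the GATA site AGATAA were in 12.4%, 6.47%, 6.75%, 6.02% and 9.99% of the windows, on either strand. None of these 5 was in the Ptgs2 window and none of the 7 motifs in that of Edn1, which says only that those letters are not in these windows. Bases from the annotated start onward were not searched, so sites there would be missed.

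Of the 10 genes, 9 were higher in aorta than in kidney and Ednrb was lower, all 10 past the test in a joint fit of the 40 libraries, where 86.5% of all 17514 genes tested were. Tissue and count table cannot be told apart in this comparison. Ptgis, the prostacyclin synthase, was 201-fold higher in aortas (log2 fold change 7.65 ± 0.13 SE), and Ptgs2 34.0-fold (5.09 ± 0.45). The ligand Edn1 was 23.0-fold higher, Nos3 8.41-fold, the thromboxane receptor gene Tbxa2r 7.499-fold and Ednra, the gene of receptor A, 4.87-fold. Ptgir, the prostacyclin receptor gene, was 2.98-fold and Ece1, the converting enzyme gene, 2.29-fold higher in aortas. Ednrb, the gene of receptor B, was 2.89-fold lower in aortas than in kidneys, and the constitutive cyclooxygenase gene Ptgs1 was only 1.20-fold higher in aortas (adjusted p = 0.0209, edgeR's quasi-likelihood test with Benjamini-Hochberg adjustment). The Ptgs1 difference was lost without the near-identical pairs of libraries (adjusted p = 0.0667) and without R-1 (0.0506) or R-14 (0.0502). With a fold change over 1.5 and a mean over 5 FPM also required, 9 of the 10 passed, against 44.1% of all genes. The ranges of the 20 aortas and the 20 kidneys did not overlap for 5 genes (Nos3, Edn1, Ednra, Ptgis and Tbxa2r), and the same held for 42.7% of all genes tested.

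Per kilobase of exon, the order of the genes differed between the tissues. In aortas Ptgis had the highest median, 337 FPM per kb, and its lowest library (243) lay above the highest library of any other member. Ece1 (32.0), Edn1 (22.2), Tbxa2r (20.9) and Nos3 (10.8 FPM per kb) followed, then Ptgs1 (6.21), Ptgs2 (3.32), Ptgir (2.14), Ednra (1.98) and Ednrb (1.07). From Ece1 downwards the ranges of neighbours overlapped. In kidneys Ece1 stood first at a median of 12.7 FPM per kb and its lowest library (11.04) lay above the highest of Ptgs1 (6.95), the next gene. Ptgs1 (5.12), Ednrb (4.06), Tbxa2r (2.60), Ptgis (1.59), Nos3 (1.29), Edn1 (0.827), Ptgir (0.689), Ednra (0.424) and Ptgs2 (0.0596 FPM per kb) followed, each overlapping the next. Ece1 was first or second in both tissues, while Ptgs1 was second in kidneys and stood behind 5 other members in aortas.

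**Figure D1:**
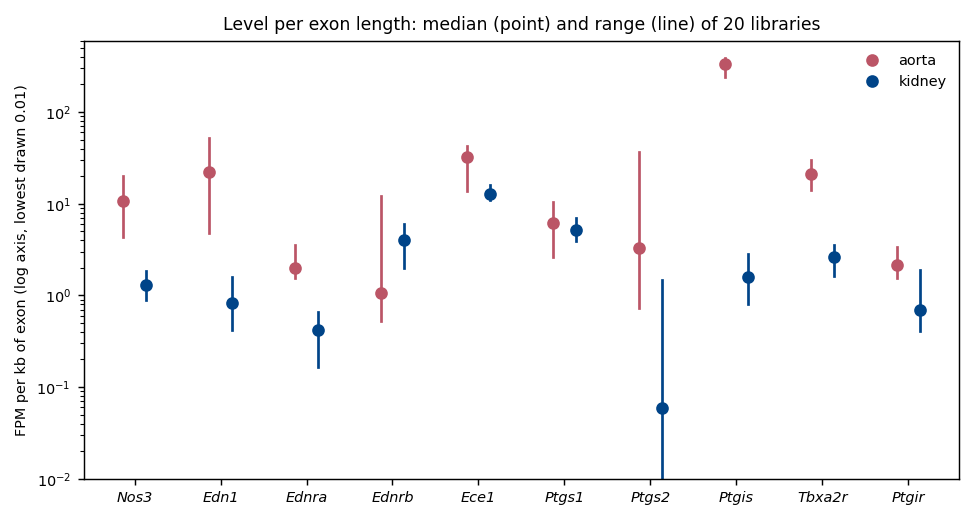
Level of the 10 genes per kilobase of exon (y axis, FPM per kb, log scale; x axis, gene), with the median of 20 libraries as a point and their range as a line, aortas and kidneys side by side. Ptgis stands at a median of 337 in aortas and 1.59 in kidneys, and Ednrb is the gene that is higher in kidneys (4.06 against 1.07). The lowest Ptgs2 kidney, at 0, is drawn at the lower edge.

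The effect of the knockout in aortas was asked first for nitric oxide. Nos3 was at 49.9, 46.7, 19.7, 44.9 and 23.7 FPM in the WT SFD aortas R-1 to R-5, and at 38.1, 49.3, 65.5, 89.3 and 68.1 FPM in the KO SFD aortas R-11 to R-15. Under HFD it was at 45.0, 62.1, 19.4, 73.4 and 29.7 FPM in the WT aortas R-6 to R-10 and at 35.3, 82.1, 85.2, 84.4 and 41.0 FPM in the KO aortas R-16 to R-20. The genotypes overlapped under both diets, with the lowest values in the WT aortas R-3 and R-8. Averaged over the diets the fold of KO over WT was 1.55 (log2 0.63, 95% interval 0.10 to 1.16), with an unadjusted p of 0.0226 and an adjusted p of 0.498 in edgeR's quasi-likelihood test.

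Among the endothelin genes, the ligand gene Edn1 was at 66.9, 29.6, 14.9, 48.0 and 52.6 FPM in WT SFD aortas and at 52.1, 66.8, 50.6, 64.4 and 121 FPM in KO SFD aortas. Under HFD it was at 23.2, 19.2, 10.96, 52.6 and 31.7 FPM in WT and 21.1, 68.1, 77.4, 73.7 and 30.5 FPM in KO aortas. The genotypes overlapped under both diets, and R-15 stood alone at the top. The averaged fold was 1.81 (log2 0.86 ± 0.31 SE, adjusted p = 0.458). Ece1, which ranged from 77.0 to 244 FPM, gave 1.24-fold (adjusted p = 0.714) and Ednra, at 9.21 to 20.4 FPM, a log2 difference of -0.19 (adjusted p = 0.673). Ednrb was at 2.42 to 7.20 FPM in the WT aortas and at 3.33 to 4.95 FPM in the KO SFD aortas. In the KO HFD aortas it was at 55.1 FPM in R-16 and at 5.07, 5.33, 8.59 and 10.46 FPM in the other 4. R-16 set the averaged difference of Ednrb, which was 0.78 on the log2 scale with it (adjusted p = 0.558) and 0.18 without it (0.729). R-16 also had the highest summed macrophage level of all aortas, 2074 FPM against 228 to 528 FPM in the other 19 (5 of 5 markers with counts). It had the highest summed lymphoid level too, 96.7 FPM (6 of 8 with counts, Cd3e and Cd3g at 0). The KO SFD aorta R-11 had the next highest lymphoid level, 51.8 FPM, with Ednrb at 4.28 FPM. The part of macrophage and lymphoid cells in the Ednrb value of R-16 was not tested. In RNA of unsorted tissue, fewer or more cells of a type and less or more RNA per cell cannot be told apart.

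The cyclooxygenase genes had the smallest unadjusted p-values of the 10 for the knockout in aortas averaged over the diets. Under HFD alone Ednrb had the smallest (0.00619, edgeR's quasi-likelihood test). Ptgs1 was at 30.4, 21.3, 10.9, 23.6 and 23.4 FPM in WT SFD and at 23.1, 30.6, 30.4, 42.5 and 35.3 FPM in KO SFD aortas. Under HFD it was at 15.4, 28.5, 11.1, 21.7 and 14.1 FPM in WT and at 42.4, 30.2, 33.4, 28.2 and 18.9 FPM in KO aortas. The genotypes overlapped, under HFD through R-7, R-9, R-19 and R-20. The averaged fold of Ptgs1 was 1.58 (log2 0.66 ± 0.19 SE, unadjusted p = 0.00281, adjusted p = 0.397, edgeR's quasi-likelihood test). Ptgs2 was at 15.4, 3.56, 5.82, 15.9 and 13.9 FPM in WT SFD and at 16.8, 15.4, 19.1, 16.9 and 39.2 FPM in KO SFD aortas. It was at 8.41, 18.8, 7.52, 25.5 and 10.6 FPM in WT HFD and at 5.25, 28.4, 36.6, 178 and 22.5 FPM in KO HFD aortas. Under SFD the genotypes overlapped for Ptgs2 through R-12 alone, the library near-identical to the WT aorta R-1. The other KO SFD aortas, from 16.8 FPM in R-11, lay above the highest WT SFD aorta, R-4 (15.9 FPM). Under HFD the KO group held both the lowest and the highest Ptgs2 value. The averaged fold was 2.74 (log2 1.45 ± 0.46 SE, unadjusted p = 0.00552, adjusted p = 0.421), and without R-19 the log2 difference was 0.86 (adjusted p = 0.577). The synthase gene Ptgis, at 676 to 1082 FPM, and the receptor genes Tbxa2r, at 28.3 to 60.8 FPM, and Ptgir, at 5.48 to 11.9 FPM, had averaged log2 differences of -0.09, -0.09 and -0.04.

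No member was called for the knockout in aortas: 0 of 10 under SFD (all genes 0%), 0 of 10 under HFD (0%) and 0 of 10 averaged over the diets (0.0198%), by edgeR and equally by DESeq2's Wald test. An unadjusted p under 0.05 was reached by 5 members in the average (Nos3, Edn1, Ednrb, Ptgs1 and Ptgs2, each higher in KO), where 8.78% of all genes tested reached it, by 4 under HFD (5.85% of all) and by 0 under SFD (2.28%). The median log2 difference of the 10 was 0.47 in the average, beside 0.00 for all 15122 genes. The 5 members are not separate observations, as all were read from the same libraries. The averaged Ednrb difference rested on R-16, and Nos3 and Edn1 both followed the endothelial score (r = 0.89 and 0.799 across 19 aortas). The interaction of genotype and diet gave 0 calls among the members and 0% of all genes, with Ednrb the single member under an unadjusted p of 0.05 (1.62 on the log2 scale, and 0.43 without R-16).

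**Figure D2:**
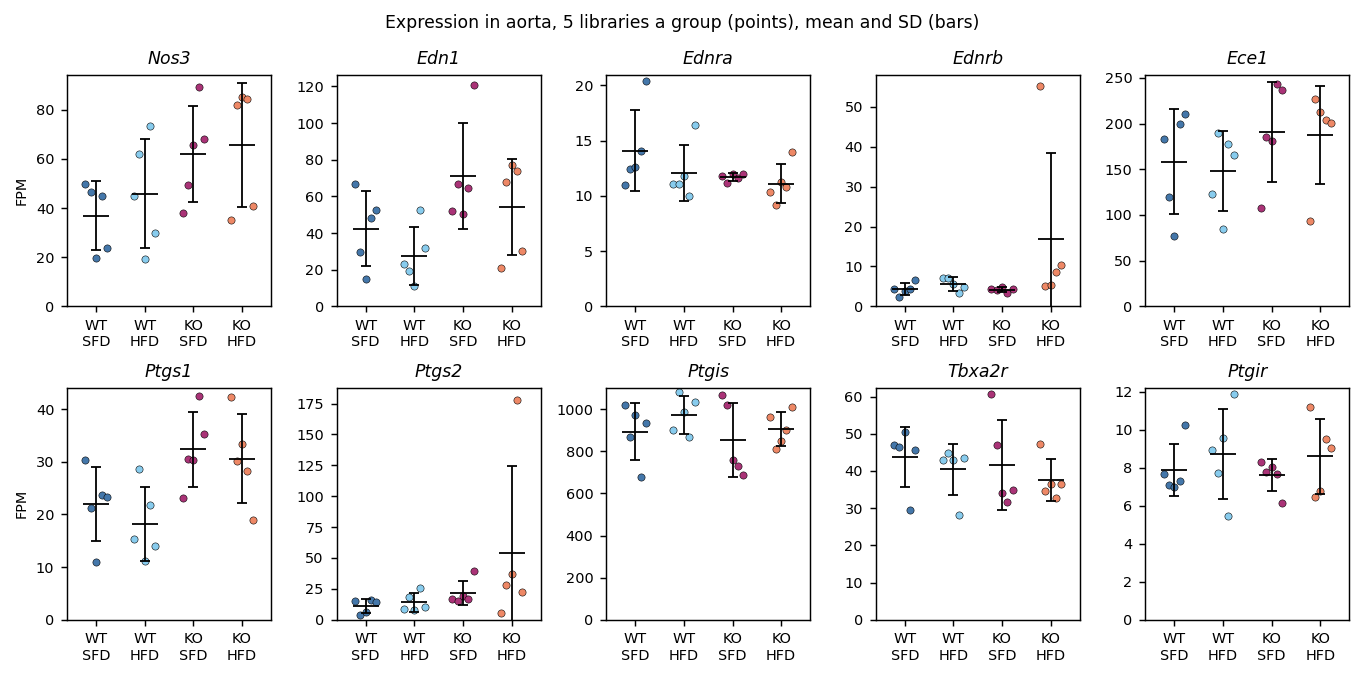
FPM (y axis, linear from 0) of the 10 genes in aortas of the 4 groups (x axis), with 5 libraries a group as points and the mean with its SD as bars. Single libraries stand far from their groups for Ednrb (R-16, 55.1 FPM) and Ptgs2 (R-19, 178 FPM). WT and KO overlap for every gene, for Ptgs2 under SFD through R-12 alone, which is near-identical to R-1.

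Endothelial and immediate-early genes moved with these values. The summed level of the 9 endothelial markers with counts was 395 to 1517 FPM in WT SFD, 465 to 1733 in WT HFD, 805 to 2007 in KO SFD and 693 to 1795 in KO HFD aortas. The summed level of the 8 immediate-early genes, which can respond to handling of tissue, all with counts, was 421 to 2209, 970 to 3306, 1236 to 3064 and 1234 to 14315 FPM in the same order. With the endothelial score (the mean log2 level of the markers) in the fit, the averaged log2 difference was 0.30 for Nos3, 0.50 for Edn1, 0.54 for Ptgs1 and 0.96 for Ptgs2. With the immediate-early score in the fit it was 0.33 for Nos3, 0.33 for Edn1, 0.62 for Ptgs1 and 0.02 for Ptgs2, and no member had an adjusted p under 0.05 in either fit. Ptgs2 itself moved with the immediate-early genes, and Nos3 with the endothelial markers, as given next. A fit with such a score cannot separate the difference of these genes from that of the score. The cause was not tested. Across 19 aortas (R-12 left out), 40 relations of members and scores being computed in both tissues, Nos3 correlated with the endothelial score at r = 0.89 and rho = 0.904 (permutation p = 2e-05 and 1e-05, adjusted 0.000267 and 0.0004), at 0.815 without the 2 most distant libraries and at 0.903 within groups. Ptgs2 correlated with the immediate-early score at r = 0.934 and rho = 0.905 (permutation p = 1e-05, the smallest that 100000 permutations can give, and 2e-05, adjusted 0.0002 and 0.0004), at 0.848 without the 2 most distant libraries and at 0.91 within groups. Tbxa2r ran the other way, with r = -0.693 and rho = -0.747 to the endothelial score (permutation p = 0.00089 and 0.0003, adjusted 0.00593 and 0.002), -0.741 without the 2 most distant libraries and -0.682 within groups. Ece1 (r = 0.909, rho = 0.818, permutation p = 1e-05 and 5e-05, adjusted 0.0002 and 0.000667) and Edn1 (r = 0.799, rho = 0.798, permutation p = 5e-05 and 0.0001, adjusted 0.0005 and 0.001) also followed the endothelial score, at 0.83 and 0.663 without the 2 most distant libraries. Some members followed both scores in aortas. Ptgs2 had r = 0.67 and rho = 0.77 to the endothelial score. To the immediate-early score Edn1 had r = 0.596 and rho = 0.726, and Nos3 r = 0.574 and rho = 0.642. Scores and members were read from the same libraries.

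**Figure D3:**
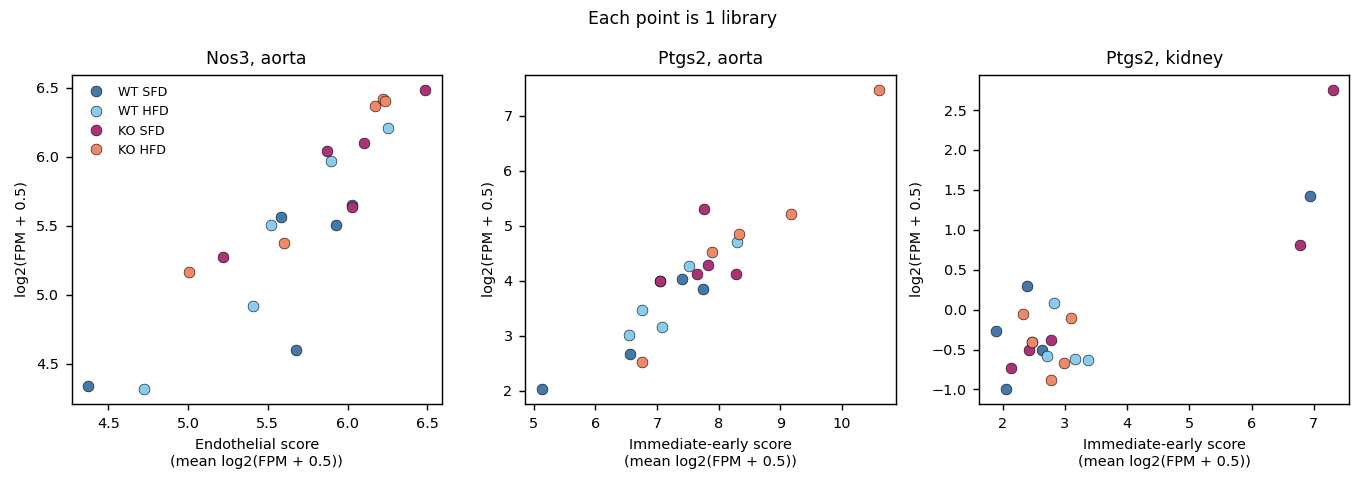
Level of Nos3 against the endothelial score in aortas, and of Ptgs2 against the immediate-early score in aortas and kidneys, both axes as log2(FPM + 0.5), each point a library coloured by group. In kidneys 3 SFD libraries (a8, a9 and a17) stand apart at immediate-early scores of 6.79 to 7.30, the other 17 lying between 1.89 and 3.38.

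The genes most like each member across the 19 aortas, by Pearson's r of log2 levels among 10515 genes, were named as a description. Nos3 was most like Arhgef15 (0.96) and Gata2 (0.95), Ece1 like Epas1 (0.98) and Ptprb (0.97), and Ptgs2 like Jun (0.94) and Otud1 (0.94). Edn1 was most like Gcnt1 (0.92) and Sptlc2 (0.92), Ptgs1 like Ptk2b (0.92) and Frrs1 (0.89), and Ednrb, with R-16 among the libraries, like Man2b1 (0.83) and Itgam (0.83). Ptgis was most like Rilpl1 (0.95) and Rnf187 (0.94), Tbxa2r like Ptp4a3 (0.92) and Snapc2 (0.90), Ednra like Hivep3 (0.86) and Sorcs2 (0.84), and Ptgir like P3h1 (0.79) and Mgat1 (0.79). Across 19 kidneys (a1 left out) and 10421 genes, Ptgs1 was most like Anxa6 (0.90) and Sparc (0.89), Ece1 like Magi1 (0.88) and Pcnx3 (0.84), and Nos3 like Cdc42ep4 (0.87) and Csnk1e (0.83). The other 6 members had a mean under 5 FPM in kidneys and were not ranked there.

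No member passed the test for HFD in aortas. The calls were 0 of 10 in WT (0.0132% of all genes), 0 of 10 in KO (0%) and 0 of 10 averaged over the genotypes (0.0529%), by edgeR and by DESeq2's Wald test, and an unadjusted p under 0.05 was reached by 0, 1 and 1 members. The gene was Ednrb in both, with a log2 difference of 1.19 in the average (adjusted p = 0.468) and 0.59 without R-16 (0.421). Edn1 was lower under HFD by a log2 difference of -0.51 and Ptgs2 higher by 0.85 in the average, neither past the test. The Ptgs2 value was 0.24 without R-19 and -0.24 with the immediate-early score in the fit. For Nos3, the averaged fold was 1.15, and for Ptgs1 the log2 difference was -0.18.

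In kidneys Ptgs1, the constitutive cyclooxygenase gene, was the single member called for HFD. It was at 15.3, 18.4, 13.9, 15.4 and 14.8 FPM in the WT SFD kidneys a16 to a20 and at 21.4, 19.6, 21.3, 19.01 and 17.8 FPM in the WT HFD kidneys a11 to a15. In KO it was at 14.3, 15.9, 19.3, 18.4 and 15.4 FPM under SFD (a6 to a10) and at 19.4, 24.9, 20.6, 23.0 and 18.7 FPM under HFD (a1 to a5). The diets overlapped in WT through a17 and a15, and in KO through a8 and a5. Ptgs1 rose 1.28-fold averaged over the genotypes (log2 0.35 ± 0.07 SE, adjusted p = 0.00174, edgeR's quasi-likelihood test), with the same size in WT (0.35, adjusted p = 0.0425) and in KO (0.35, adjusted p = 0.0418) and an interaction of 0.00 (adjusted p = 1.00). The averaged call was kept in all 30 alternatives, with log2 differences of 0.30 to 0.46, among them without a8, a9 and a17 (0.46) and with the endothelial score in the fit (0.30). The call in WT alone was kept in 17 of 31 alternatives and was lost without the near-identical pair (adjusted p = 0.0603), and that in KO alone was kept in 22 of 31. The count of called members was 1 of 10 in WT (6.71% of all genes), in KO (6.34%) and in the average (16.4%), a share near the background. With a fold change over 1.5 and a mean over 5 FPM also required, 0 of 10 remained, against 2.18%, 2.16% and 2.92% of all genes.

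Ptgs2 in kidneys was near the limit of detection and rested on 3 libraries. It had 0 to 149 counts a library, and a count of 0 in a18 allows up to 0.131 FPM (3 counts, counting error only). It was at 0.333, 2.19, 0, 0.723 and 0.207 FPM in WT SFD and at 0.168, 0.253, 0.154, 0.148 and 0.559 FPM in WT HFD kidneys. In KO it was at 0.101, 0.206, 1.26, 6.26 and 0.269 FPM under SFD and at 0.253, 0.465, 0.131, 0.0438 and 0.427 FPM under HFD. The 3 highest values were those of a9, a17 and a8, all fed SFD, and the diets overlapped. The summed immediate-early level was 1676 to 1884 FPM in these 3 kidneys and 72.4 to 168 FPM in the other 17. The averaged log2 difference between the diets was -2.02 (adjusted p = 0.0671) with them and 0.05 (adjusted p = 0.971) without them. Ptgs2 was called in 6 of 30 alternatives, among them DESeq2's Wald test (adjusted p = 0.021), the endothelial score in the fit (0.0156) and the fit without a16 and a18 (0.0427).

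The remaining members in kidneys did not pass the test. Edn1 was at 0.902 to 1.83 FPM in WT SFD, 1.52 to 2.76 FPM in WT HFD, 0.838 to 3.19 FPM in KO SFD and 1.33 to 2.30 FPM in KO HFD kidneys. Its averaged fold under HFD was 1.44 (log2 0.52 ± 0.22 SE, adjusted p = 0.112), and the adjusted p was 0.00999 without a9, the highest SFD kidney, and 0.0362 without a8, a9 and a17. Ednra had an averaged log2 difference of 0.31 (adjusted p = 0.244), and of 0.53 (0.0257) without those 3 kidneys. Tbxa2r had 0.31 (adjusted p = 0.0834) and Ptgis 0.35. Nos3, at 3.41 to 7.21 FPM, and Ece1, at 54.0 to 79.8 FPM, had log2 differences of 0.00 and 0.01, with 95% intervals of -0.25 to 0.25 and -0.10 to 0.12. Ednrb had a log2 difference of 0.17 and Ptgir of -0.10. The correlation of Ednrb with the endothelial score in kidneys rested on the 2 most distant libraries: r was 0.735 (rho 0.374, permutation p = 0.0012 and 0.116, adjusted 0.006 and 0.184) and 0.387 without them. For Ptgs1 in kidneys r was 0.596 (rho 0.561, permutation p = 0.00256 and 0.0136, adjusted 0.00843 and 0.0417) and 0.531 without the 2 most distant libraries.

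**Figure D4:**
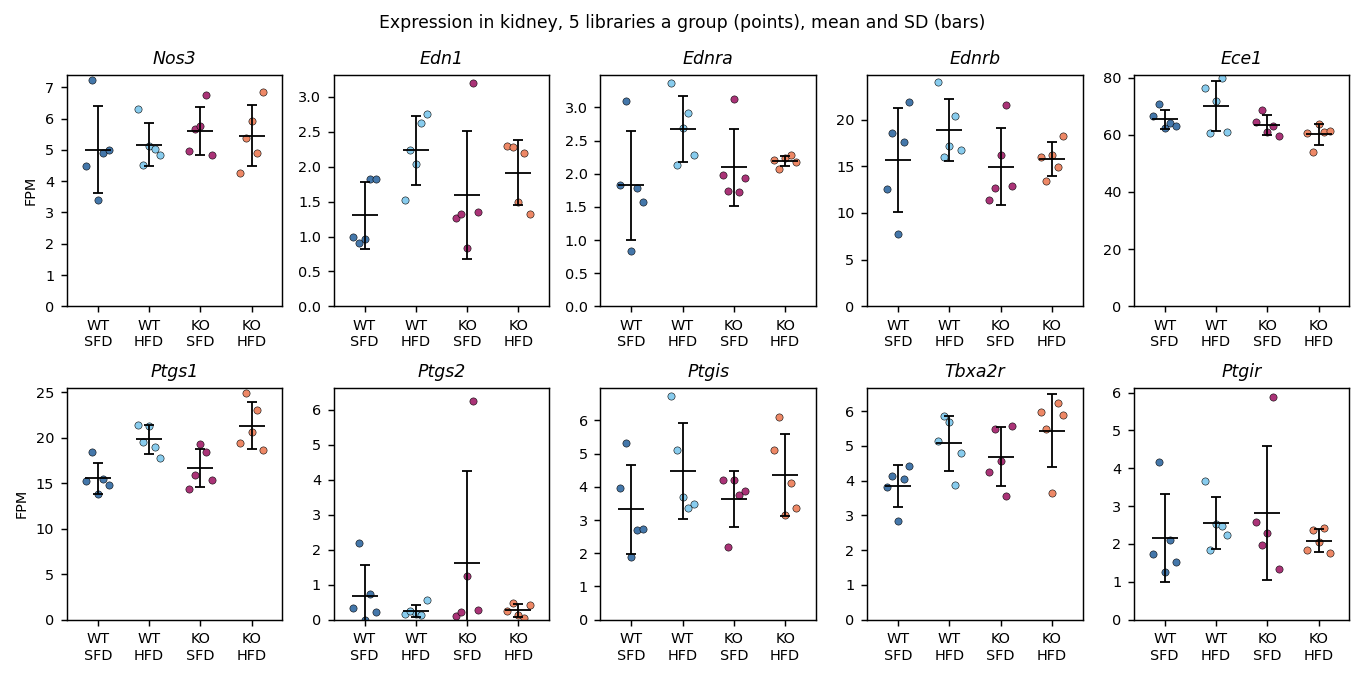
FPM (y axis, linear from 0) of the 10 genes in kidneys of the 4 groups (x axis), with 5 libraries a group as points and the mean with its SD as bars. Ptgs1 is higher under HFD in both genotypes, and the high Ptgs2 values belong to a9 (6.26 FPM), a17 (2.19 FPM) and a8 (1.26 FPM), all fed SFD.

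No member passed the test for the knockout in kidneys. The calls were 0 of 10 under SFD, under HFD, in the average and in the interaction, where 0% of all 15943 genes were called as well. An unadjusted p under 0.05 was reached by 0, 1, 1 and 0 members in these comparisons by edgeR, and DESeq2's Wald test called 0. The gene was Ece1, at 54.0 to 63.8 FPM in KO HFD and 60.7 to 79.8 FPM in WT HFD kidneys, with a log2 difference of -0.22 under HFD (adjusted p = 0.814) and -0.13 in the average (0.802).

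**Figure D5:**
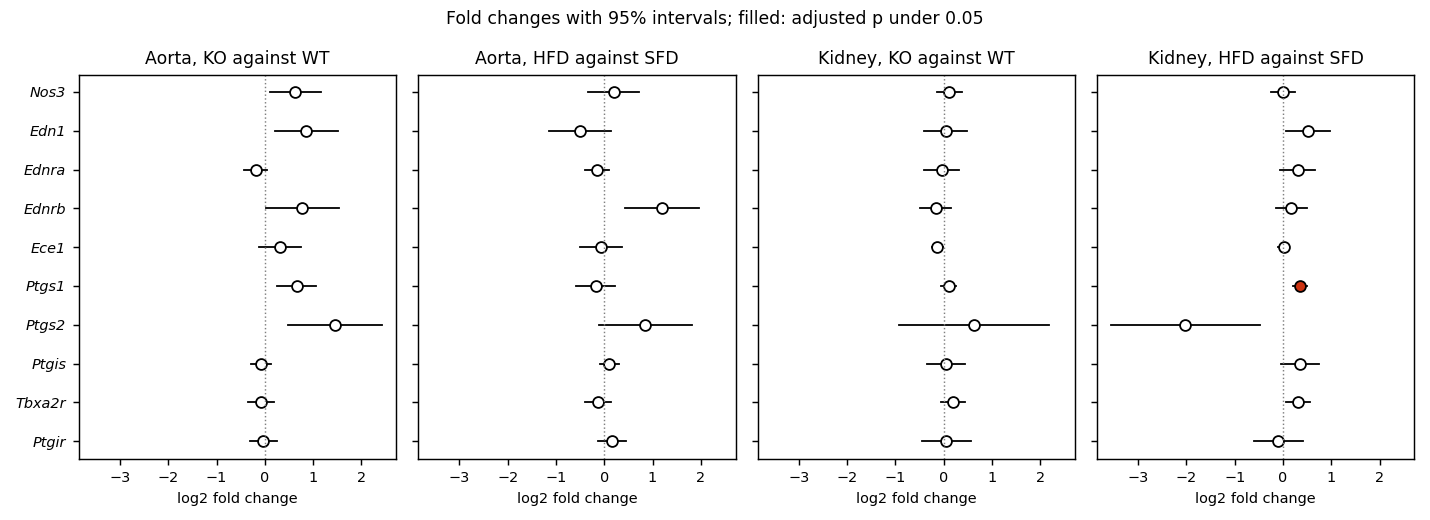
Log2 fold changes of the 10 genes (x axis) with 95% intervals, for KO against WT and HFD against SFD, each averaged over the other factor, in aortas and kidneys. The filled point, Ptgs1 in kidneys under HFD (0.35), is the single one with an adjusted p under 0.05, and the intervals of Nos3, Edn1, Ednrb, Ptgs1 and Ptgs2 lie above 0 for KO in aortas.

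The effect of HFD was then compared between the tissues in the joint fit. Ptgs2 was the single member called, its diet effect differing by 2.89 on the log2 scale (aorta minus kidney, ± 0.87 SE, adjusted p = 0.0387, edgeR's quasi-likelihood test). That was 1 of 10 beside 6.5% of all genes, and 1 of 10 also past 1.5-fold and 5 FPM beside 3.04%. Without both near-identical pairs the difference was 2.91 (adjusted p = 0.127). The value was 1.97 without a9 (adjusted p = 0.182), 2.27 without R-19 (0.0853) and 2.36 without a17 (0.128), and 0.22 (0.966) without a8, a9, a17 and R-19, the libraries with the highest immediate-early scores of their tissues. The part of the immediate-early genes in it was not tested further.

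The other genes of the pathways, 19 listed for nitric oxide, 4 for endothelin and 19 for the prostanoids, were read in the same fits. They were not refitted without the near-identical kidneys a1 and a12, both fed HFD, so their calls were not tested against that pair. In aortas 15, 3 and 14 of them were tested and 0 were called in each of the 7 comparisons. In kidneys 17, 2 and 15 were tested. Averaged over the genotypes, 2 nitric oxide genes were called higher under HFD and 1 lower, 0 endothelin genes, and 4 prostanoid genes higher and 2 lower. That made 3 of 17, 0 of 2 and 6 of 15 called, where 16.4% of all genes were. A difference of the diet effect between aorta and kidney was called for 2 of 17, 0 of 3 and 4 of 15 of them, beside 6.5% of all genes. The rising nitric oxide genes were Gucy1b1, a subunit of soluble guanylate cyclase, the receptor of nitric oxide (1.59-fold, adjusted p = 0.00389), and Prkg1, the cyclic GMP-dependent kinase (1.46-fold, adjusted p = 0.0307). The WT SFD kidneys a16 and a18 had the lowest summed endothelial levels of the kidneys, 217 and 159 FPM. The other kidneys had 263 to 396 FPM, and the part of a16 and a18 in these rises was not tested. Ddah1, which breaks down inhibitors of nitric oxide synthase, fell by 0.17 on the log2 scale (adjusted p = 0.0154). Among the prostanoid genes Hpgds, a prostaglandin D synthase, rose 3.01-fold, from 1.10 ± 0.34 to 3.81 ± 0.45 FPM in WT and from 1.45 ± 0.62 to 3.79 ± 0.87 FPM in KO (SD, n = 5; adjusted p = 6.17e-06, edgeR's quasi-likelihood test). Ptgds, the other prostaglandin D synthase, rose 1.72-fold (adjusted p = 0.0136), and the carbonyl reductase gene Cbr1 1.33-fold (0.0011). Hpgd, whose product inactivates prostaglandins, rose 1.36-fold (adjusted p = 0.0251). Akr1b3, an aldose reductase with prostaglandin F synthase activity, fell by 0.76 on the log2 scale (adjusted p = 0.00466), and the prostaglandin E receptor gene Ptger1 by 0.49 (0.0481). Within 1 genotype, Hpgds and Cbr1 were called in both, Gucy1b1, Prkg1 and Akr1b3 in WT and Ptger1 in KO, and 0 genes of the lists were called in the interaction.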

How the data were processed

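RNA of 20 aortas and 20 kidneys was sequenced by the authors, who deposited raw counts per gene, 1 table a tissue, mapped to GRCm38/mm10 and counted with featureCounts. The submitters' notes name HISAT2 (2.1.0) for mapping and the methods TopHat2. Whether strand was used, and how multi-mapped reads were treated, is not given in the sources used here. Groups came from the labels of tissue, genotype and diet.

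Counts were tested in R 4.3.3 with edgeR 4.0.16 (TMM normalization, filterByExpr by group, robust quasi-likelihood test, Benjamini-Hochberg adjustment over all genes tested), 15122 genes in aortas, 15943 in kidneys and 17514 in the joint fit. A gene was called at an adjusted p under 0.05. The labels do not say that the libraries of a group came from separate animals, so p-values measure the spread between these libraries. Intervals of fold changes are 95% intervals from the fit. Levels per kilobase use the union of exons in GENCODE M21. Scores are means of log2(FPM + 0.5), an offset that holds for correlations too. Promoter sequences are from RefSeq (GRCm38.p6). The scripts were tested on simulated data.

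The 10 genes, the pathway and marker lists, the rule for the genes named and the alternatives were chosen with earlier results of these data known. The rule named all 10 members in every comparison, the pathway genes called within a tissue (at most 10, by smallest p), and for each member with a mean of at least 5 FPM the 2 genes with the highest correlation. The genes most like Ednrb in kidneys are not reported here. Alternatives were DESeq2 1.42.0, its size factors, no filter, no robust estimation, the compared groups alone, scores as covariates and left-out libraries. They were computed for the 10 members only, not for the other pathway genes. The immediate-early covariate, the clock covariate in aortas, the fit without a16 and a18 and the joint fit without a8, a9, a17 and R-19 were added after seeing the data.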

Additional observations from a re-analysis of the deposited data

Results flagged for a closer look

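In 18 of 80 groups of 5 libraries, 1 library lay far from the other 4 by Dixon's gap test at 95% on FPM. For independent and normally distributed values, chance gives about 1 in 20 groups, or 4. FPM need not be normal and the groups share libraries across genes, so 18 against 4 does not measure an excess. In aortas, Edn1 (121 FPM) and Ptgs2 (39.2 FPM) were high in the KO SFD aorta R-15. In the KO HFD aorta R-16 Ednrb (55.1 FPM) and Tbxa2r (47.3 FPM) were high and Ece1 (93.1 FPM) was low. Ptgs2 was high in the KO HFD aorta R-19 (178 FPM). Ednra was high in the WT HFD aorta R-10 (16.5 FPM) and Ptgir in the WT SFD aorta R-5 (10.3 FPM). Tbxa2r was low in the WT SFD aorta R-4 (29.6 FPM) and in the WT HFD aorta R-9 (28.3 FPM).

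In kidneys, in the KO SFD kidney a9 Edn1 (3.19 FPM), Ptgs2 (6.26 FPM) and Ptgir (5.88 FPM) were high, and Ednra was high in a8 (3.12 FPM) of the same group. Ptgir was high in the WT SFD kidney a17 (4.17 FPM) and Ptgs2 in the WT HFD kidney a15 (0.559 FPM). Ptgis was low in the KO SFD kidney a7 (2.19 FPM) and Tbxa2r in the KO HFD kidney a3 (3.63 FPM). Kidneys a8, a9 and a17, which hold 5 of the 8 in kidneys, are those with summed immediate-early levels of 1676 to 1884 FPM, and the part of those genes was not tested.

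The effect of HFD on Ptgs2 differed between aorta and kidney by 2.89 on the log2 scale (aorta minus kidney). R-19 and a9, both named above, were among the libraries without which its adjusted p was over 0.05.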

How the results depend on the processing

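In aortas the count of called members was 0 in each of the 7 comparisons and all their alternatives, and in kidneys likewise for the 3 knockout comparisons and the interaction. For aorta against kidney it was 9 or 10. In kidneys under HFD, the WT count of 1 became 0 with a fold change over 1.5 and 5 FPM, with no filter, without both near-identical libraries, with the endothelial covariate, without a16 and a18 and in the compared groups alone, and 2 without a8, a9 and a17. The KO count of 1 became 0 with the fold rule, no filter and the compared groups alone. The averaged count of 1 became 0 with the fold rule, 2 with DESeq2's Wald test, the endothelial covariate and without a16 and a18, with Ptgs2 the gained call in these 3, 2 with the immediate-early covariate, and 3 without a8, a9 and a17. With each library left out in turn the counts were 0 to 2 in WT, 0 to 1 in KO and 1 to 2 in the average. The call of Ptgs1 was lost in WT without any of a7, a11, a12, a13, a14, a16, a18, a19 or a20 (adjusted p 0.0523 to 0.105) and in KO without any of a2, a4, a6, a7, a10, a16 or a19 (0.0509 to 0.117).

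For HFD in aorta minus kidney the count of 1 became 0 with no filter and without both near-identical pairs, and was 0 to 1 with each library left out. The call of Ptgs2 was kept in 24 of 40 such fits and lost without any of R-2, R-3, R-7, R-9, R-12, R-14, R-19, a1, a3, a4, a9, a11, a12, a13, a14 or a17 (adjusted p 0.0513 to 0.182). Ptgs2 changed direction in several fits, among them for the knockout under HFD in aortas (-0.15 on the log2 scale with the immediate-early covariate, against 1.93), and without a8, a9 and a17 for HFD in KO kidneys (0.41, against -2.63) and in the average (0.046, against -2.02). The causes were not tested. No paired analysis was possible because the groups share no replicate numbers. Depth limits Ptgs2 in kidneys most, with 0 to 149 counts a library.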

Other observations

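The spread of the members between libraries differed widely. In aortas the highest library exceeded the lowest 50.0-fold for Ptgs2, 23.1-fold for Ednrb and 10.9-fold for Edn1, and 1.61-fold for Ptgis, the member with the highest level per kilobase. In kidneys the same ratio was 4.57 for Ptgir, 3.99 for Ednra and 3.81 for Edn1, and 1.44 for Ece1, with a coefficient of variation of 198% for Ptgs2 and 9.22% for Ece1.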
